A study of Mus musculus with 12 samples.

Results

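Cyp4f39 and Prss30 are a pair of chromosome 17 genes that were chosen by their measured FPKM, which was lower in the extensor digitorum longus (EDL) libraries labelled strNrip1-/- than in the wild-type (WT) control libraries. They are 2 of the 17752 genes in the deposited expression table, and both were found there by gene name. Since the genotype difference chose them, it is described below with its error and carries no test. The comparisons that were tested are the training difference and the interaction of genotype with training for Cyp4f39, and the genes around and related to each member.

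Cyp4f39 encodes a cytochrome P450 of the Cyp4 family, enzymes that add a hydroxyl group to the omega end of fatty acids. It is the mouse counterpart of human CYP4F22, which hydroxylates the very long acyl chains used to build the acylceramides of the epidermal water barrier. Prss30 encodes a serine protease first named for its place of expression, the distal intestine, and belongs to the large group of trypsin-like proteases that also holds the membrane-anchored Tmprss enzymes. Neither is a textbook gene of the muscle fibre. Nrip1 encodes RIP140, a coregulator that is recruited by nuclear receptors such as the estrogen-related receptors and represses many genes of oxidative metabolism.

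RNA was sequenced from the EDL, a fast-twitch hindlimb muscle, of male mice in 4 groups with 3 libraries in each. The sedentary and the trained WT groups were littermate controls without Cre, whose floxed Nrip1 alleles were intact. The sedentary and the trained strNrip1-/- groups carried the same floxed alleles together with a Cre recombinase driven by the muscle creatine kinase promoter, which acts in heart and skeletal muscle, so other cells of the EDL kept the gene. Training was voluntary wheel running for 8 weeks from 8 weeks of age, and sedentary mice had no such running. The labels number the libraries but do not tie them to litters or days, and the p-values below measure the spread between these libraries. The spacing of the lowest values placed the depth at 20.0 to 29.0 M fragments per library.

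Cyp4f39 (ENSMUSG00000061126) spans chr17:32452723-32493320 on the plus strand of GRCm38, the assembly also called mm10, with 5 annotated transcripts of up to 14 exons. Prss30 (ENSMUSG00000024124) spans chr17:23972126-23980566 on the minus strand, with 7 transcripts of up to 7 exons. The 250 bases before each start site in RefSeq (GRCm38.p6) are shown because both genes carried the genotype difference and RIP140 reaches DNA through factors with known recognition letters. The windows are chr17:32452473-32452722 for Cyp4f39 and chr17:23975231-23975480 for Prss30, each printed 5′ to 3′ on the gene's own strand. Capitals mark matches to 6 motifs searched on both strands.
Cyp4f39: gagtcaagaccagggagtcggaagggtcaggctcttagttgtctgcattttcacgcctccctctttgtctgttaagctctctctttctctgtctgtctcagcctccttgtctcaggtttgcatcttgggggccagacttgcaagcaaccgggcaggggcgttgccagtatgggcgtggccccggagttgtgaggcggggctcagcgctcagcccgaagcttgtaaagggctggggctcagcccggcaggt
Prss30: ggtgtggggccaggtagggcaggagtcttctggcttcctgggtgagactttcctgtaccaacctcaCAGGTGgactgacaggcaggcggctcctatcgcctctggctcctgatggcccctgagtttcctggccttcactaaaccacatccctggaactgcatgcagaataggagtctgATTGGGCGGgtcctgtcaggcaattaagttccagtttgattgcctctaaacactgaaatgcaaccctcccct

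The motifs were the nuclear receptor half-site AGGTCA, the estrogen-related receptor element TNAAGGTCA (which contains the half-site), the E-box CANNTG, the GC box GGGCGG, the CCAAT box CCAAT and the TATA box TATAAA. The Cyp4f39 window held none of these letters. The Prss30 window held 1 E-box that began 184 bases before the start, 1 GC box at 69 bases and 1 CCAAT box on the opposite strand at 72 bases, the last 2 overlapping in one run of capitals. Among 32851 windows of the same length, the half-site was found in 14.02%, the estrogen-related receptor element in 1.14%, the E-box in 66.2%, the GC box in 32.7%, the CCAAT box in 33.9% and the TATA box in 12.4%. The windows were 59.6% (Cyp4f39) and 55.6% (Prss30) G or C, against a median of 52.4% over all windows. GENCODE also places a Prss30 transcript that begins further upstream, whose promoter is not shown.

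The targeted gene went against the labels. Nrip1 stood at 3.60, 2.55 and 3.84 FPKM (a level of fragments scaled by transcript length and sequencing depth) in WT sedentary libraries and at 15.5, 16.3 and 14.9 FPKM in the libraries labelled strNrip1-/- sedentary. After training it was at 2.53, 4.76 and 3.56 FPKM in WT and at 20.7, 14.9 and 16.6 FPKM in the libraries labelled strNrip1-/-. Every library labelled strNrip1-/- thus had more Nrip1 signal than every WT library. The deposited value covers the whole gene, and the deleted exon 4, which holds the coding sequence, could not be read apart from the rest, and every genotype direction below is that of the labels.

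Some libraries also stood apart in 4 of 6 listed genes of the intestinal epithelium. The summed level of Vil1 (a microvillus protein), Cdx2 (an intestinal transcription factor), Cdh17 (an intestinal cadherin) and Krt20 (a keratin of the gut lining) was 2.60 to 7.22 FPKM in 10 libraries. It was 0.274 FPKM in the library labelled strNrip1-/- sedentary replicate 3 and 0.0663 FPKM in the library labelled strNrip1-/- trained replicate 3. These values bear on Prss30 and are set beside it below. The set of 4 was not fixed beforehand: the planned list held 6 genes, and Lgals4 and Krt8, given below, are left out of the sum. Markers of the fast muscle fibre, among them Myh4 and Acta1, were high throughout, with a summed level between 74102 and 120931 FPKM.

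Cyp4f39 was the stronger of the pair and was clearly present in WT muscle. Its level in the WT sedentary libraries was 12.6, 10.1 and 13.97 FPKM, and in the libraries labelled strNrip1-/- sedentary it was 0.946, 1.14 and 1.58 FPKM. The groups lay far apart, at 12.2 ± 1.95 and 1.22 ± 0.322 FPKM (SD, n = 3), so that the labelled strNrip1-/- mean was 9.99% of the WT mean. In trained mice the level was 13.3, 6.998 and 10.99 FPKM in WT and 1.33, 1.84 and 1.96 FPKM in the libraries labelled strNrip1-/-. Here too the groups did not overlap, and the labelled strNrip1-/- mean of 1.71 ± 0.333 FPKM was 16.4% of the WT mean of 10.4 ± 3.18 FPKM (SD, n = 3).

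The transcript was lower but still measured in the libraries labelled strNrip1-/-. From the depth estimate, these levels came from about 48.3 to 127 fragments per labelled strNrip1-/- library and 411 to 775 per WT library, against a floor of 3 fragments. On the scale of log2(FPKM + 0.5), Cyp4f39 differed by -2.89 in sedentary mice and -2.27 in trained mice (SE 0.224 for both). Counted from the lowest difference, it took place 4 among 12744 tested genes in sedentary muscle and place 5 in trained muscle. Only 0.421% of its stretches of 31 bases were shared with another annotated gene, among them Cyp4f37.

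Prss30 was low even where it was highest. Its level was 2.43, 2.21 and 0.703 FPKM in the WT sedentary libraries and 0.271, 0.156 and 0 FPKM in the libraries labelled strNrip1-/- sedentary. These groups did not overlap, with means of 1.78 ± 0.941 and 0.143 ± 0.136 FPKM (SD, n = 3), although WT replicate 3 lay well below the other WT libraries. In trained mice it was 0.567, 0.645 and 0.0605 FPKM in WT and 0.152, 0.0679 and 0 FPKM in the libraries labelled strNrip1-/-. Trained WT replicate 3 lay below labelled strNrip1-/- trained replicate 1, so the trained groups overlapped. It could not be told from labelled strNrip1-/- trained replicate 2, since each rested on about 2.07 fragments.

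Few fragments stood behind these Prss30 values. They corresponded to about 16.3 to 67.7 fragments per library in WT sedentary mice, at most 7.09 in the labelled strNrip1-/- sedentary group, 2.07 to 19.6 in trained WT mice and at most 5.21 in the labelled strNrip1-/- trained group. A library with no fragment allows a level of up to 0.0965 FPKM in labelled strNrip1-/- sedentary replicate 3 and 0.0887 FPKM in labelled strNrip1-/- trained replicate 3, which covers counting error only. The log2 difference was -1.75 in sedentary and -0.63 in trained mice (SE 0.363 for both), places 19 and 272 from the lowest. Prss30 passed the filter of a mean of 0.5 FPKM only through the WT sedentary group, and 0.751% of its stretches of 31 bases were shared with another gene.

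The size of the Prss30 difference depended on the constant added before the logarithm. It was -2.98 in sedentary mice with 0.1 FPKM added and -1.22 with 1 FPKM added. The trained difference was -1.41 with 0.1 FPKM added and -0.38 with 1 FPKM added. For Cyp4f39 the sedentary difference lay between -3.24 and -2.57 under the same pair of constants.

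**Figure D1:**
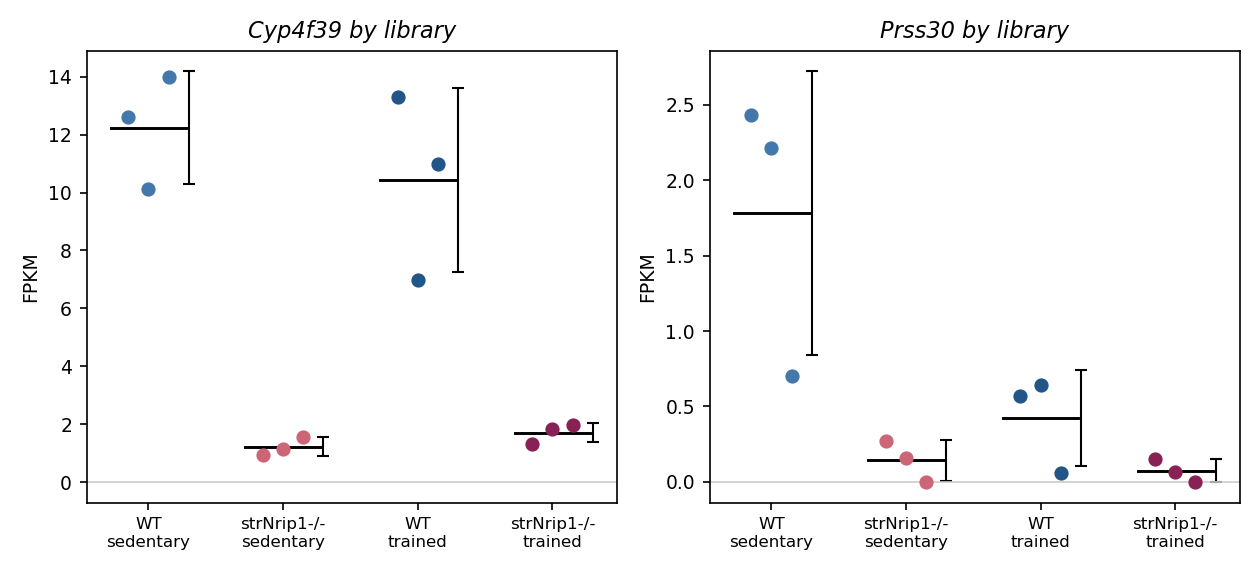
FPKM of Cyp4f39 (left) and Prss30 (right) on linear axes, 1 point per library in the 4 labelled groups, with the mean as a line and the SD (n = 3) as a bar. Cyp4f39 separates the labelled genotypes in sedentary and in trained mice, whereas the Prss30 mean in WT is 1.78 FPKM in sedentary and 0.424 FPKM in trained mice and its trained groups overlap.

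The order of the 4 groups differed between the members. Cyp4f39 was highest in WT sedentary, then WT trained, then labelled strNrip1-/- trained, and lowest in labelled strNrip1-/- sedentary mice. Neighbouring groups within a genotype overlapped, so only the step between genotypes exceeded the spread of libraries. Prss30 was highest in WT sedentary mice and did not overlap there with any other group, while the remaining 3 groups overlapped in sequence. Among tested genes, 10.9% had all labelled strNrip1-/- sedentary libraries below all WT sedentary libraries, and 13.4% did so in trained mice.

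Training was compared next. Cyp4f39, which was above the filter of 0.5 FPKM in all 4 groups, showed a trained minus sedentary log2 difference of -0.25 in WT (SE 0.224, adjusted p = 0.822, limma) and 0.36 in the labelled strNrip1-/- groups (SE 0.224, adjusted p = 0.555, limma). Prss30 passed the filter only through WT sedentary mice, whose high values also chose it, so its training values are a description with no test. It differed by -1.27 in WT (SE 0.363). In that comparison every trained WT library lay below every sedentary WT library, a pattern shown by 6.50% of tested genes. In the labelled strNrip1-/- groups Prss30 differed by -0.15 (SE 0.363) and overlapped, where 7.50% of tested genes had all trained libraries below all sedentary ones. Neither training difference of Cyp4f39 passed the test, and no tested gene was called in either genotype (0% of 12744 called by limma, with 1061 genes in WT and 1544 in labelled strNrip1-/- mice at an unadjusted p under 0.05).

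Pooled over the labelled genotypes, the training difference of Cyp4f39 was 0.06 (exact permutation test within genotype, two-sided, p = 0.785, where the smallest p is 0.005). That of Prss30 was -0.71, given with no test for the same reason, and ran from -0.91 (without WT sedentary replicate 3) to -0.55 when 1 library was left out. The interaction, which asks whether the genotype difference changed with training, was 0.62 for Cyp4f39 (SE 0.317, adjusted p = 0.660, limma). It did not pass, as for every tested gene (0% called, with 989 at an unadjusted p under 0.05). For Prss30 the same value was 1.12 (SE 0.513), with no test.

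Prss30 was at 0 in exactly the 2 libraries where the sum of these 4 intestinal genes was near 0. Replicate by replicate, the sum of the 4 intestinal genes was 6.34, 7.22 and 6.88 FPKM in WT sedentary mice and 4.51, 4.53 and 0.274 FPKM in the libraries labelled strNrip1-/- sedentary. In trained mice it was 2.999, 4.62 and 2.63 FPKM in WT and 3.09, 2.60 and 0.0663 FPKM in the libraries labelled strNrip1-/-. The intestinal sum, like Prss30, was highest in WT sedentary mice and lowest in replicate 3 of the labelled strNrip1-/- groups. Between these extremes the orders differed. WT sedentary replicate 3 had a sum of 6.88 FPKM but only 0.703 FPKM of Prss30. WT trained replicate 3 and labelled strNrip1-/- trained replicate 2 had sums of 2.63 and 2.60 FPKM. Their Prss30 values of 0.0605 and 0.0679 FPKM rested on about 2.07 fragments each and could not be told apart. Cdx2 was at 0 in replicate 3 of both labelled strNrip1-/- groups, and Vil1 and Cdh17 were at 0 in replicate 3 of the trained one.

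All 6 listed intestinal markers were in the table, and their summed level, which is dominated by Lgals4 and Krt8, was 24.5 to 27.5 FPKM in WT sedentary, 12.3 to 18.2 in labelled strNrip1-/- sedentary, 13.0 to 18.6 in WT trained and 8.13 to 16.1 in labelled strNrip1-/- trained mice. Both of these broader genes were measured in the libraries where the other 4 were near 0. Lgals4, a galectin, was 4.97 FPKM in labelled strNrip1-/- sedentary replicate 3 and 7.39 FPKM in labelled strNrip1-/- trained replicate 3, the lowest of each group. Krt8, a keratin of simple epithelia, was 7.08 FPKM in the former, the highest of its group, and 0.672 FPKM in the latter, the lowest of its group. In trained mice mean Lgals4 was higher in labelled strNrip1-/- (9.10 FPKM) than in WT (7.15 FPKM). Mean Krt8 was lower there, at 2.36 against 4.44 FPKM. Further intestinal genes, picked after their values were seen, showed the same libraries at the bottom. Zg16, a goblet cell secretory protein, averaged 10.5 FPKM in WT sedentary mice and was at 0 in replicate 3 of both labelled strNrip1-/- groups. Fabp2, the intestinal fatty acid-binding protein, averaged 11.3 FPKM in WT sedentary mice, with minima of 0.858 and 0.112 FPKM in the labelled strNrip1-/- sedentary and trained groups. Liver genes, also picked after their values were seen (Alb, Ttr and Apoc3), followed another order. Their summed level was 236 to 418 FPKM in WT sedentary, 251.2 to 400.2 in labelled strNrip1-/- sedentary, 62.3 to 290.2 in WT trained and 84.1 to 167 in labelled strNrip1-/- trained mice. It was thus lower after training by mean in both genotypes, with overlap in WT, and was 400.2 FPKM in labelled strNrip1-/- sedentary replicate 3, where Prss30 was at 0. Where the intestinal and liver transcripts came from, and their part in the genotype and training values of Prss30, was not tested, and in bulk RNA fewer cells of a type and less RNA per cell cannot be told apart.

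Prss30 was also set against the sum of the 4 intestinal genes, as a description on the values that chose it. It was 38.4%, 30.6% and 10.2% of the intestinal sum in WT sedentary libraries and 6.01% and 3.44% in labelled strNrip1-/- sedentary replicates 1 and 2. In trained mice it was 18.9%, 13.97% and 2.30% in WT against 4.93% and 2.61% in labelled strNrip1-/- replicates 1 and 2, which overlap. With replicate 3 of both labelled strNrip1-/- groups left out, an analysis chosen after these values were seen, the Prss30 log2 difference was -1.58 in sedentary and -0.53 in trained mice. With the intestinal sum as a covariate it was -1.49 and -0.44. In the WT training comparison, where every trained library also had a lower intestinal sum than every sedentary library, the covariate moved the Prss30 difference from -1.27 to -1.10.

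Cyp4f39 did not share this pattern. In replicate 3 of both labelled strNrip1-/- groups, where the 4 intestinal genes were near 0, Cyp4f39 was the highest of its group, at 1.58 and 1.96 FPKM. Its log2 difference was -3.03 in sedentary and -2.36 in trained mice without those libraries, and -3.13 and -2.44 with the intestinal covariate. Over the 12 libraries, the correlation of the log2 intestinal sum was 0.446 with Cyp4f39 and 0.686 with Prss30. Within groups, after the group means were removed, it was -0.577 and 0.397, and these points share library and depth.

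**Figure D2:**
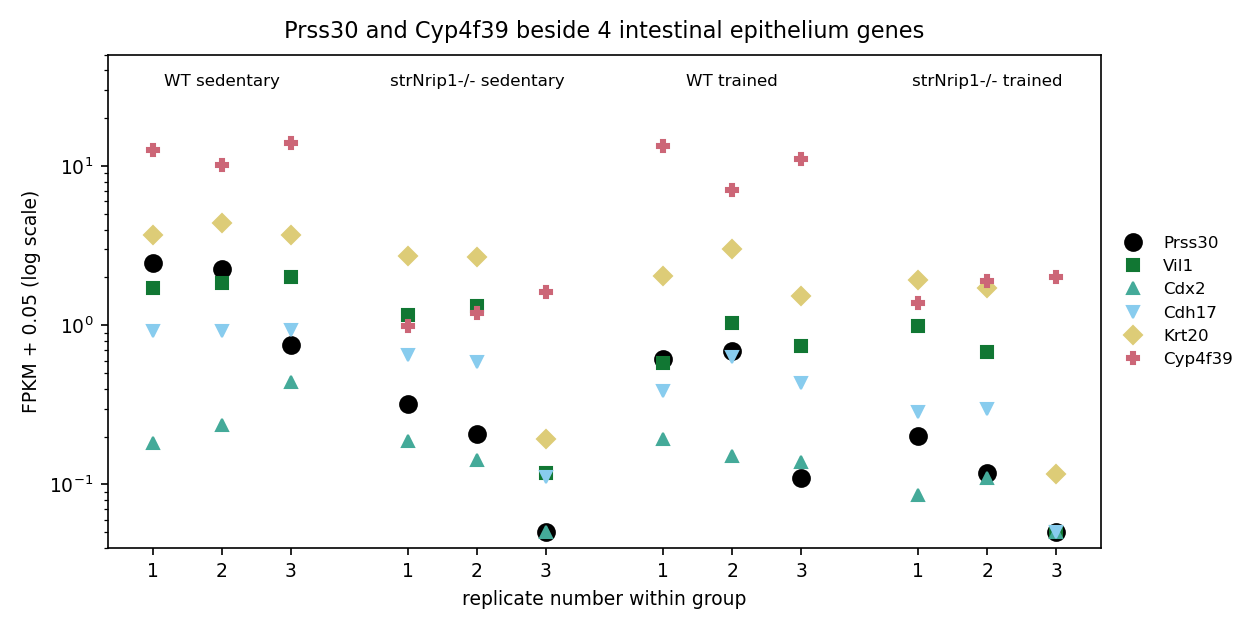
FPKM + 0.05 on a log axis for Prss30, Cyp4f39 and 4 of the 6 listed intestinal epithelium genes in each library, by labelled group and replicate number. Lgals4 and Krt8 of that list are not shown. Prss30 and the intestinal genes shown reach their lowest values in replicate 3 of both groups labelled strNrip1-/-, where Cyp4f39 is the highest of its group.

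Other marker lists were checked in the same way. For the epidermis, where Cyp4f39 is best known, 4 of 7 markers were in the table and their summed level was 5.68 to 6.74 FPKM in WT sedentary, 6.23 to 7.91 in labelled strNrip1-/- sedentary, 7.92 to 9.25 in WT trained and 6.26 to 7.58 in labelled strNrip1-/- trained mice. The epidermal sum was thus highest in trained WT mice, and sedentary WT and labelled strNrip1-/- libraries overlapped. None of the tested epidermal, intestinal, mast cell, adipocyte or Schwann cell markers was called in either genotype comparison by limma, although 4 of 6 tested adipocyte markers had an unadjusted p under 0.05 in sedentary mice, where their median log2 difference was 1.14. The adipocyte sum was 171 to 214 FPKM in WT sedentary and 231 to 352 FPKM in labelled strNrip1-/- sedentary libraries, with no overlap, and 207 to 249 and 219.8 to 335 FPKM in trained mice, which overlapped. In both labelled strNrip1-/- groups its highest value was in replicate 3. Its part in the genotype differences of the members was not tested. Of the other lists, 0 or 1 marker had an unadjusted p under 0.05 in a comparison. Among 7 fast fibre markers, Actn3, an actin crosslinker of fast fibres, fell by 0.90 in sedentary and by 0.75 in trained muscle on the log2 scale (adjusted p under 0.05, limma). The fibre sum was 99673 to 109436 FPKM in WT sedentary and 74102 to 96016 FPKM in labelled strNrip1-/- sedentary libraries, and 98975 to 120931 and 82817 to 87301 FPKM in trained mice, with no overlap in either comparison. Of the 7 fibre markers 5 had an unadjusted p under 0.05 in each comparison, with median log2 differences of -0.35 and -0.39. The part of this shift in the members' values was not tested.

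Calls in the genes around and related to the members are read against all tested genes. By limma, with an adjusted p under 0.05 and a fold above 1.2, 3.51% of the 12744 genes were called between the labelled genotypes in sedentary mice (1.92% higher and 1.59% lower in labelled strNrip1-/-) and 5.98% in trained mice (3.21% higher and 2.77% lower). The split between directions depended on scaling. Of sedentary calls 54.8% were higher, against 18.6% with all libraries brought to the same sum of FPKM and 82.7% with the same sum of nuclear genes. Of trained calls 53.7% were higher, against 80.9% and 75.9%.

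No other tested Cyp4 gene was called between the labelled genotypes. Of 16 other Cyp4 genes, 8 passed the filter and were tested, and 0 were called by limma in either comparison, with 0 (sedentary) and 1 (trained) at an unadjusted p under 0.05. Their median log2 difference was -0.02 in sedentary and 0.05 in trained mice, while that of all tested genes was within 0.01 of 0. Cyp4f13, an enzyme of the same subfamily, was the highest of the others at 8.07 FPKM in WT sedentary and 8.49 FPKM in labelled strNrip1-/- sedentary mice (log2 difference 0.07, adjusted p = 0.855, limma). Cyp4b1 was next, at 2.72 and 2.35 FPKM (log2 difference -0.15, adjusted p = 0.862, limma).

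Cyp4f39 thereby changed its place within the family. Per length, it was the most abundant of 17 Cyp4 genes in both WT groups, with 37.7% of all Cyp4 FPKM in sedentary and 38.2% in trained mice. In labelled strNrip1-/- mice it took place 6 with 5.56% in sedentary and place 3 with 8.51% in trained muscle. The sum of the other Cyp4 genes was 20.2 FPKM in WT sedentary, 20.8 in labelled strNrip1-/- sedentary, 16.8 in WT trained and 18.4 in labelled strNrip1-/- trained mice.

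Of 17 other Prss and Tmprss genes 8 were tested, and the few calls among these were higher in labelled strNrip1-/- mice. In sedentary mice 2 were called higher and 0 lower. Tmprss13, a type II transmembrane serine protease, was 0.0372 FPKM in WT sedentary and 7.02 FPKM in labelled strNrip1-/- sedentary mice, a log2 difference of 3.81. It passed the filter of 0.5 FPKM only through the labelled strNrip1-/- groups. A call of it could therefore only be higher, so its direction is no result set against Prss30. Prss23, a secreted serine protease, was 41.7 and 57.5 FPKM (log2 difference 0.46, adjusted p = 0.025, limma), and the list held 1 call when any WT sedentary library or labelled strNrip1-/- sedentary replicate 1 or 2 was left out. In trained mice Tmprss13 was called (log2 difference 3.53) and Prss23 was not (0.25, adjusted p = 0.164, limma). The list's median log2 difference was 0.22 in sedentary and 0.13 in trained mice.

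**Figure D3:**
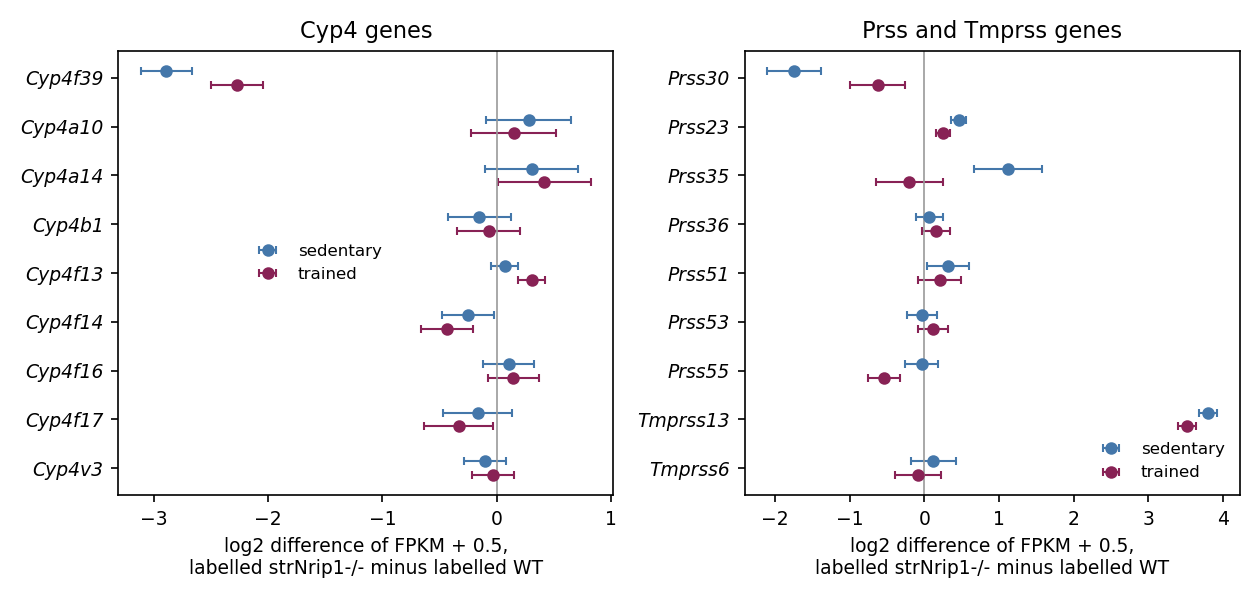
Log2 difference of FPKM + 0.5 (labelled strNrip1-/- minus labelled WT) with its SE for Cyp4f39 and the 8 tested Cyp4 genes (left) and for Prss30 and the 8 tested Prss and Tmprss genes (right), in sedentary and trained mice. Cyp4f39 lies at -2.89 and -2.27 while its relatives lie near 0, and Tmprss13 lies at 3.81 and 3.53 on the opposite side from Prss30. Tmprss13 passed the filter only through the labelled strNrip1-/- groups.

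Genes of acylceramide synthesis and use, which act before or after the Cyp4f39 step in skin, were near 0 in EDL or did not pass the test. Of 16 acylceramide pathway genes 13 were in the table and 7 were tested, with 0 called by limma and 0 at an unadjusted p under 0.05 in either comparison. Tecr, a reductase of fatty acid elongation, was 179 FPKM in WT sedentary and 153 FPKM in labelled strNrip1-/- sedentary mice (log2 difference -0.25, adjusted p = 0.445, limma). Abhd5, a lipase coactivator needed for acylceramide synthesis, was 17.7 and 16.7 FPKM (log2 difference -0.07, adjusted p = 0.793, limma). Group means of the elongase Elovl4 and of Pnpla1, Alox12b, Aloxe3, Tgm1 and Sdr9c7, which build or modify acylceramides or the cornified envelope, ran from 0 to 0.185 FPKM.

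Genes that carry omega-hydroxylated fatty acids onward through oxidation showed a few calls, all higher. Of 19 such genes 18 were tested, and 2 were called in each comparison, with list medians of 0.16 and 0.17. Acsl1, which activates long fatty acids to their coenzyme A esters, differed by 0.56 in sedentary (adjusted p = 0.021, limma) and 0.61 in trained mice (adjusted p = 0.010, limma). Hsd17b4, a multifunctional enzyme of peroxisomal oxidation, differed by 0.39 in trained mice (adjusted p = 0.017, limma). The genes called in either comparison numbered 3, and the count was 1 without trained WT replicate 1, trained WT replicate 3 or labelled strNrip1-/- trained replicate 2.

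The list of activators, inhibitors and targets of membrane-anchored proteases held 12 measured genes, of which 6 were tested. None was called in sedentary mice by limma, where 4 had an unadjusted p under 0.05. In trained mice Serpine2, a secreted protease inhibitor, was called lower, at 65.8 FPKM in WT and 49.6 FPKM in labelled strNrip1-/- mice (log2 difference -0.41, adjusted p = 0.005, limma). The list median was -0.09 in sedentary and -0.34 in trained mice. Genes called in either comparison rose from 1 to 2 without WT sedentary replicate 1 or 3, labelled strNrip1-/- sedentary replicate 2 or trained WT replicate 2.

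Both members lie on chromosome 17, so the genes around each were examined within 1 Mb. Around Cyp4f39, 28 genes were tested and 0 were called by limma in either comparison, with 0 (sedentary) and 2 (trained) at an unadjusted p under 0.05. Its nearest tested neighbours were Wiz, a zinc finger protein 98.7 kb below, and its relative Cyp4f17, 53.3 kb above. Wiz was 5.01 FPKM in WT sedentary and 5.41 FPKM in labelled strNrip1-/- sedentary mice (log2 difference 0.10, adjusted p = 0.746, limma), and Cyp4f17 was 1.35 and 1.13 FPKM (-0.17, adjusted p = 0.861, limma).

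Around Prss30, 48 genes were tested, and its nearest tested neighbours Elob and Kctd5 lay 147 kb and 75.6 kb away and were not called. In sedentary mice E4f1, a zinc finger regulator of the cell cycle, was lower, at 8.88 FPKM in WT and 6.04 FPKM in labelled strNrip1-/- mice (log2 difference -0.52, adjusted p = 0.026, limma). In trained mice 5 genes were higher, namely Abca3 (a lipid transporter, 0.59), Eme2 (an endonuclease subunit, 0.62), Amdhd2 (an enzyme of N-acetylglucosamine breakdown, 0.43), Fahd1 (a mitochondrial oxaloacetate decarboxylase, 0.54) and Traf7 (a ubiquitin ligase, 0.29). None of these 5 moved in the direction of Prss30. The 6 calls fell to between 1 and 3 when labelled strNrip1-/- sedentary replicate 1, trained WT replicate 1 or 3, or any labelled strNrip1-/- trained library was left out. Over the 640 tested genes of chromosome 17, 2.66% were called in sedentary and 4.69% in trained mice.

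**Figure D4:**
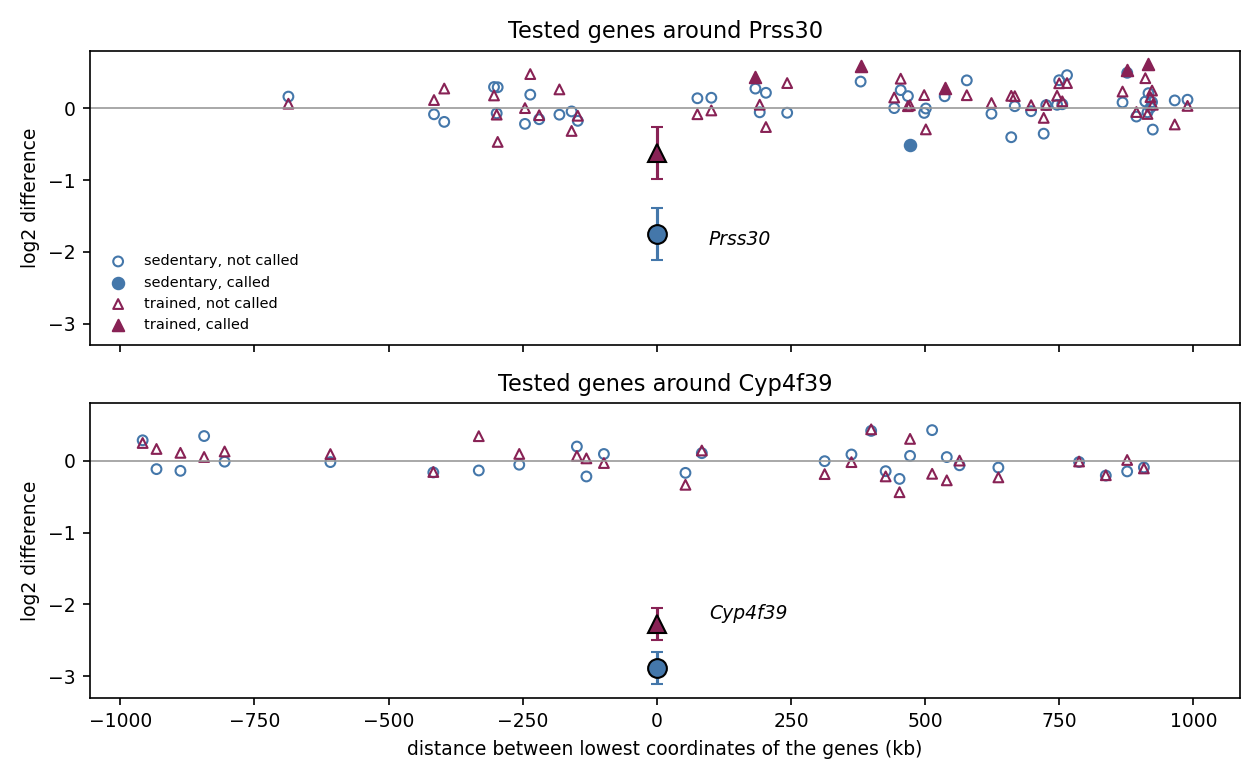
Log2 difference of FPKM + 0.5 (labelled strNrip1-/- minus labelled WT) against the distance in kb for tested genes within 1 Mb of Prss30 (top, 48 genes) and Cyp4f39 (bottom, 28 genes), with filled points for called genes and the members at 0 kb with their SE. The members lie at -1.75 and -2.89 in the sedentary comparison, below every tested neighbour of their window. They were chosen by this difference, so their place below the neighbours is no result about the locus.

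The genes whose pattern over the 12 libraries was most like each member were named by Pearson correlation of log2(FPKM + 0.5), as a description. The points share group, library and depth. Closest to Cyp4f39 were Psme4 (a proteasome activator, r = 0.985), Jph2 (a protein of the membrane junctions of muscle, 0.985), Tpbgl (0.980), Aebp1 (a secreted matrix protein, 0.974) and Kbtbd12 (0.974). Jph2 was 303 ± 7.11 FPKM in WT sedentary and 207 ± 3.65 FPKM in labelled strNrip1-/- sedentary mice (SD, n = 3). Most opposed were Uqcc1, an assembly factor of respiratory complex III (r = -0.989), Tmprss13 (-0.977) and Suclg2, a subunit of succinyl-CoA ligase (-0.976).

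These genes were picked by a correlation that includes the part within groups, so that part is no separate support. After group means were removed, r with Cyp4f39 was 0.707 for Psme4, 0.706 for Tpbgl and -0.785 for Uqcc1, but 0.05 for Tmprss13. Prss30 had weaker matches over all libraries, namely Klhdc2 (a substrate receptor of a ubiquitin ligase, r = 0.884), the processed pseudogene Gm4332 (0.873), the homeobox gene Hoxc4 (0.865), Fbxo10 (0.864) and Tasp1 (0.860). Most opposed to Prss30 were Sh2b2, an adaptor of receptor kinases (-0.934), Tmem129 (-0.892) and Zfp113 (-0.882). Within groups, r with Prss30 ran from 0.497 (Fbxo10) to 0.845 (Tasp1) for its closest genes. For the opposed genes it ran from -0.822 (Tmem129) to -0.664 (Zfp113). The correlation of Cyp4f39 with Prss30 was 0.666 over all libraries and -0.525 within groups.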

How the data were processed

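Libraries were prepared from EDL RNA with the NEBNext Ultra kit. Per the labels, the authors quantified reads with Salmon 1.10.2 against mm10 and used DESeq2 1.44.0; the deposited FPKM values were used here, scaled by transcript length and depth. The 8 columns of the authors' own comparisons, log2 fold changes and adjusted p-values made by the authors with DESeq2, were not used. Since counts were not analysed here, log2(FPKM + 0.5) of the 12744 of 17752 genes averaging 0.5 FPKM or more was fitted with limma 3.58.1 (R 4.3.3) as 4 group means over 12 libraries, with a trended variance prior and Benjamini-Hochberg adjustment within each comparison. A call needed an adjusted p under 0.05 and a fold above 1.2 (interaction: adjusted p alone). The fit was also run on simulated data with 200 changed genes. The noise was drawn independently for each gene, without shifts shared within a library, and the outcome is not reported here. Depth was estimated from the steps between small values of 1619 single-transcript genes. The depth and a length offset were chosen so that the most values lay within 0.15 of a whole number. At least 99.1% of values then did so, where 30% would by chance at a depth fixed beforehand. Gene models were GENCODE M21 (17745 IDs matched), and promoters came from RefSeq (both members matched). Named genes were the members, Nrip1, called genes of each list (or else the 2 most abundant), the nearest and called neighbours, and the 5 most and 3 least correlated genes. The members and lists were chosen with earlier results of these data known. Cers3, Abca12, Nipal4, Scnn1g, Krt5, Krt14 and Krt1 were not analysed here. The values of 1 called gene of the omega-oxidation list are not reported here.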

Additional observations from a re-analysis of the deposited data

How the results depend on the processing

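Every genotype difference of Cyp4f39 and Prss30 kept its direction under the alternatives run, and no training difference of Cyp4f39 within a genotype and no interaction of it passed the test under any of them. The constant added before the logarithm moved the sedentary Cyp4f39 difference to -3.24 (0.1 FPKM) and -2.57 (1 FPKM), the sedentary Prss30 difference to -2.98 and -1.22, and the trained Prss30 difference to -1.41 and -0.38. The pooled training difference of Prss30, which carries no test, was -0.51 with 1 FPKM added. A minimum mean of 1 FPKM removed Prss30, so that alternative gives no value for it.

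Leaving out 1 library at a time gave sedentary differences of -3.03 to -2.77 (Cyp4f39) and -2.16 to -1.51 (Prss30), and trained differences of -2.52 to -2.08 and -0.96 to -0.44. The pooled training difference of Cyp4f39 ran from -0.04 to 0.18, with its sign turned at -0.01 without WT sedentary replicate 2, at -0.00 without labelled strNrip1-/- sedentary replicate 1 and at -0.040 without WT trained replicate 1. That of Prss30 ran from -0.91 to -0.55. Called genes ran from 163 to 478 in sedentary (fewest without WT sedentary replicate 1) and from 315 to 874 in trained mice (fewest without labelled strNrip1-/- trained replicate 3). Calls ran from 1 to 2 in the Prss and Tmprss list, 1 to 3 in the omega-oxidation list, 1 to 2 in the protease partner list and 1 to 7 among neighbours.

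With only the libraries compared in the fit, calls fell to 166 in sedentary and 445 in trained mice, to 1 among neighbours and to 1 in the omega-oxidation list, and rose to 3 in the protease partner list. With all libraries rescaled to the same sum, which moved the median of all genes by -0.14 in sedentary mice, there was 1 call in the acylceramide list, 1 in the Prss and Tmprss list and 2 in the protease partner list. With both intestine-poor libraries left out, calls were 250 in sedentary and 341 in trained mice and 2 among neighbours. With the intestinal covariate, they were 267 in sedentary mice, 3 among neighbours and 1 in the Prss and Tmprss list. The last 2 alternatives were chosen after seeing the data. The cause of these changes was not tested.

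Replicate numbers shared between groups did not pair the libraries (correlations of -0.10 to 0.24 over 18 same-number pairs, -0.25 to 0.20 over 36 others). With the replicate number as a block, calls were 441 in sedentary and 756 in trained mice, the member differences were unchanged and the training and interaction p-values of Cyp4f39 stayed above the threshold.

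At these depths Prss30 rests on few fragments in every library but WT sedentary replicates 1 and 2 (67.7 and 65.5 fragments). In WT sedentary replicate 3 there were 16.3. Values below about 0.129 FPKM could not be told from 0.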
